A study of Mus musculus with 6 samples.

Results

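The genes described here are 41 markers of lymphocytes and of the signalling chains of their antigen receptors, measured in RNA from mouse pancreatic islets. They were chosen from a fixed list of symbols, and all 41 matched a gene ID among the 55421 gene IDs of the deposited count tables. They fall into 10 B cell genes, 3 genes of plasma cells and the kappa light chain, 19 T cell genes, 8 genes of natural killer (NK) and cytotoxic cells, and Ltb, a cytokine gene shared by lymphocytes. The islets came from C57BL/6 mice of the WT genotype, per the labels, and each of the 2 groups has 3 libraries. One group received vehicle, and the other received stimulation with the ligand insB:9-23, the label of an insulin B chain peptide known as an autoantigen of islets. The sources used here do not give age, dose, route or time, nor whether mice or isolated islets received the ligand, nor whether a library is 1 mouse or a pool. One library, insB:9-23 replicate 2, stood apart from the other 5 in these genes, so sums and folds that rest on it are also given without it.

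Lymphocytes recognise antigen through clonal receptors. On B cells the receptor is a membrane immunoglobulin joined to the signalling chains CD79A and CD79B, and on T cells it is the alpha-beta T cell receptor joined to the CD3 and zeta chains. The kinase LCK phosphorylates the CD3 chains, ZAP70 docks on them, and the adaptor LAT passes the signal on. A healthy islet holds resident macrophages and few lymphocytes, and infiltration by T and B cells is the hallmark of insulitis in autoimmune diabetes.

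Sequence upstream of the start is shown for 4 members, 1 or 2 for each of the B, T and NK subsets, so that the motif counts given with them can be read against real letters. RefSeq windows of GRCm38.p6 were found for 24 of the 41 members, and 12 of those lay outside the member's own GENCODE gene model. Of these 12, the B cell member, the 2 T cell members and the NK member with the largest excess in insB:9-23 replicate 2 are printed, each as the 250 bases before the start, 5′ to 3′ on the gene's strand. Capitals mark matches to the 5 motifs searched.
Pax5, at chr4:44710695-44710944 on the minus strand: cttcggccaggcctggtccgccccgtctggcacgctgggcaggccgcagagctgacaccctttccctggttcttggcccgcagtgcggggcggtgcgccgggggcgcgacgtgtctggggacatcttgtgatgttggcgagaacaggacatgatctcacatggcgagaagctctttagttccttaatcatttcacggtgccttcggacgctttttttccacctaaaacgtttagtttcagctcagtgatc
Cd3g, at chr9:44980432-44980681 on the minus strand: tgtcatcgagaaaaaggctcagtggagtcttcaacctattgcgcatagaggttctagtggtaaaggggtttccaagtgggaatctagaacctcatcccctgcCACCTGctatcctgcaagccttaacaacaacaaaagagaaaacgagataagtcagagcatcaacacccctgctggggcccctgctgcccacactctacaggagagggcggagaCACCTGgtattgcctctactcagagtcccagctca
Lck, at chr4:129573642-129573891 on the minus strand: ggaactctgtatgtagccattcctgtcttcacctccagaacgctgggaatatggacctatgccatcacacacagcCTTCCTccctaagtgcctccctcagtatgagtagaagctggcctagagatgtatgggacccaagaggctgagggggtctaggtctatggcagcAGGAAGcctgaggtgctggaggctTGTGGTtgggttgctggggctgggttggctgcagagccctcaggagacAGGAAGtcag
Gzma, at chr13:113100982-113101231 on the minus strand: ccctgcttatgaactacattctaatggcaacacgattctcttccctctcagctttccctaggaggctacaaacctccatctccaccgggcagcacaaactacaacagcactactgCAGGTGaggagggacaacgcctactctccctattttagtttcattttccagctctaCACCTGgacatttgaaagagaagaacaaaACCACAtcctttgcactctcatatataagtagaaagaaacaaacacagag

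The motifs, searched on both strands, were the octamer ATGCAAAT, the RUNX core TGTGGT, the ETS core AGGAAG, the EBF core CCCNNGGG and the E-box CAGGTG. In the printed windows the Cd3g gene has 2 E-boxes, Lck 1 RUNX core and 3 ETS cores, Gzma 1 RUNX core and 2 E-boxes, and Pax5 none of the 5 motifs, and no match overlaps another. No motif was in all 4. The RUNX core was in the window of 6 of 6 NK and cytotoxic members that have one, 1 of 11 T cell members (Lck) and 1 of 5 B cell members (Fcer2a), and in 14% of all 32851 windows. The ETS core was in 14 of the 24 member windows, against 29.5% of all windows, with 8 of 11 for T cell, 2 of 5 for B cell and 3 of 6 for NK and cytotoxic members. The EBF core was in 2 of 24 (Cd22 and Prf1), against 11.8% of all. The E-box was in 11 of the 24 member windows, against 17.2% of all. The octamer was in 0 of 24, against 1.6% of all. A match describes letters in the window only.

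The B cell genes held the largest summed level of the subsets in every library. Their summed level in CPM, the standard scale of counts relative to library size, here with TMM-adjusted sizes, was 40.8, 20.5 and 27.2 for the vehicle libraries, and it was 49.5, 157 and 12.3 for the ligand libraries, each time in the order of replicate numbers. The insB:9-23 group therefore held both the highest and the lowest library, and the groups overlapped. The ratio of the group means was 2.48 with all libraries and 1.05 without insB:9-23 replicate 2. That 1 library held 51.1% of the summed B cell CPM of all 6. In bulk RNA, fewer cells of a type and less RNA per cell cannot be told apart.

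**Figure D1:**
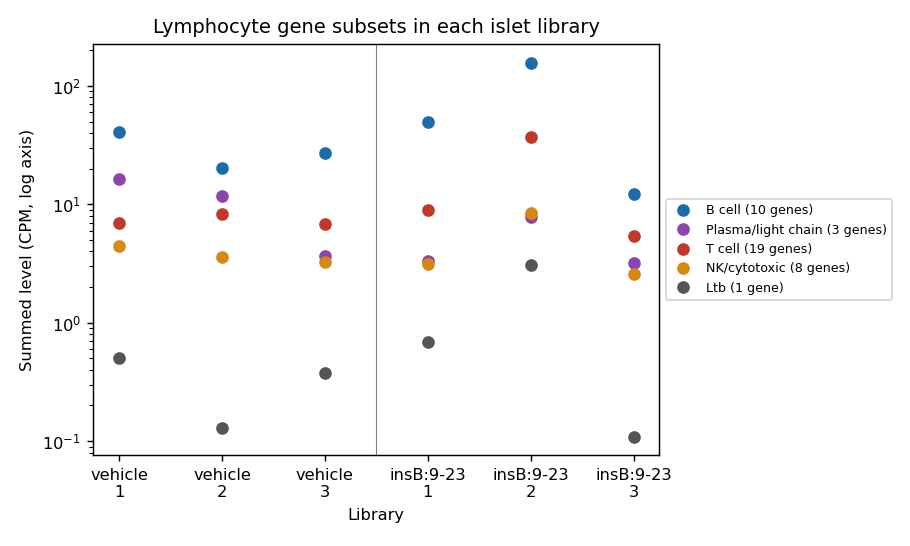
Summed CPM of each lymphocyte gene subset (log axis) in each of the 6 libraries, 1 point per subset and library. The B cell sum is 157 CPM and the T cell sum 37.4 CPM in insB:9-23 replicate 2, above every other library, while the plasma and light chain sum is highest in vehicle replicate 1 through Igkc.

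Cd79b, the beta signalling chain of the B cell receptor (chromosome 11, 106311341 to 106314762 on GRCm38), was at 0.253, 0.128 and 0.225 CPM in the vehicle libraries and at 1.09, 11.2 and 0.109 CPM in the insB:9-23 libraries. The last of these was below every vehicle library, so the groups overlapped. Its fold was 4.34 ± 1.61 on the log2 scale (SE), which did not pass over all genes (edgeR adjusted p = 0.88), and 1.57 without insB:9-23 replicate 2. Cd79a, its partner chain, was at 7.04, 6.25 and 7.12 CPM with vehicle, against 5.72, 18.1 and 5.09 CPM with the ligand. It had a floor of several CPM in every library that its partner lacked. Per exonic length, Cd79b stood at 0.629 of the Cd79a level in insB:9-23 replicate 2, but elsewhere at only 0.0209 to 0.194 of it. The log2 fold of Cd79a was 0.50 ± 0.52 (SE; edgeR adjusted p = 0.91), and without insB:9-23 replicate 2 it was -0.33.

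Ms4a1, which encodes CD20 of mature B cells (chromosome 19, 11249675 to 11266241), was at 0.57, 0.16 and 0.543 CPM with vehicle, against 2.2, 20.2 and 0.284 CPM with the ligand. It followed the order of Cd79b in the insB:9-23 libraries, with replicate 1 also above all vehicle libraries. Its log2 fold was 4.15 ± 1.57 (SE; edgeR adjusted p = 0.88), and 1.55 without replicate 2. Blk, a B cell tyrosine kinase, had 9, 8 and 5 counts with vehicle, against 8, 138 and 6 counts with the ligand. It had the largest excess of any member in 1 library, 10.5-fold above the highest of the other 5 (with 0.1 CPM added to both), and it did not pass the filter on low counts.

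The other B cell members showed smaller steps. Pax5, the B lineage transcription factor, was 1.93-fold and Cr2, complement receptor 2, was 1.73-fold above the highest other library in insB:9-23 replicate 2. Fcer2a, the low-affinity IgE receptor CD23, was 2.46-fold above it. Cd22, an inhibitory coreceptor, was at 1.28, 0.753 and 1.05 CPM with vehicle, against 2.58, 3.91 and 1.9 CPM with the ligand. It was the only B cell member whose groups did not overlap, and its log2 fold was 1.44 ± 0.37 (SE; edgeR adjusted p = 0.88) or 1.12 without replicate 2. An antisense gene shares 9.5% of its exonic bases, and whether the counting used strand is not known here.

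Ighm, the constant region of IgM (chromosome 12, 113418558 to 113422730), had the highest level per exonic length of all 41 members, at 16.7 CPM per kb on average. It was at 29.8, 12 and 17 CPM with vehicle, against 33.9, 92.4 and 4.22 CPM with the ligand. The groups overlapped, and the log2 fold of 1.15 ± 1.00 (SE; edgeR adjusted p = 0.90) became -0.04 without insB:9-23 replicate 2. Ighd, the constant region of IgD of naive B cells, was at 0.285, 0.144 and 0.487 CPM with vehicle, against 1.26, 3.72 and 0.371 CPM with the ligand. The log2 fold of Ighd was 2.55 ± 0.93 (SE; edgeR adjusted p = 0.88), and 1.42 without replicate 2. Ighm exceeded Ighd by 11.4 to 105 times per exonic length, most in vehicle replicate 1 and least in insB:9-23 replicate 3.

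Of the plasma cell and light chain genes, Jchain had a smaller step than Ms4a1, and Igkc ranged from 0 to 853 counts across libraries. Jchain, which joins IgM and IgA into polymers, was at 2.34, 3.05 and 3.41 CPM with vehicle, against 2.27, 4.87 and 0.371 CPM with the ligand, and its log2 fold was -0.22 ± 0.81 (SE; edgeR adjusted p = 0.98), or -1.14 without replicate 2. Per exonic length Ms4a1 was 1.69 times Jchain in insB:9-23 replicate 2 and at most 0.395 times it elsewhere. Mzb1, a chaperone of antibody secretion, was 4.17-fold above the highest other library in insB:9-23 replicate 2. Its reads are uncertain, because SPATA24 shares 57.2% of its exonic bases on the same strand. Igkc, the constant region of the kappa light chain (chromosome 6, 70726435 to 70726966), had 853, 506 and 0 counts with vehicle, against 24, 0 and 106 counts with the ligand. Its log2 fold was -3.00 ± 2.16 (SE; edgeR adjusted p = 0.89), and -2.41 without replicate 2. It was without a count in the library with the highest B cell sum. The sum of the plasma and light chain genes was highest in vehicle replicate 1, at 16.4 CPM, but for Jchain and Mzb1 alone it was highest in insB:9-23 replicate 2, at 7.86 CPM against 2.93 in vehicle replicate 1. Igkc is the 1 member with a single exon, and also the 1 member at 0 in some library and at 5 CPM or more in another. Of the 258 genes of all kinds with that pattern, 202 have a single exon.

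The variable segments of the antibody genes, which are joined to the constant regions in B cells, are outside the list of members. Kappa segments with at least 3 counts numbered 32, 22 and 26 with vehicle, against 29, 53 and 5 with the ligand, of 160 listed. Kappa segments were thus most numerous in insB:9-23 replicate 2, the library where Igkc had 0 counts. Heavy chain segments numbered 32, 20 and 19 with vehicle, against 30, 52 and 3 with the ligand, of 185 listed. The most counted heavy segment took 13.9% of all heavy segment counts in insB:9-23 replicate 2 and 8.95% to 18% in the 4 libraries other than insB:9-23 replicate 3, where the leading segment took 60.5% of 81 counts. The 3 lambda segments all had at least 3 counts in vehicle replicate 1 and in insB:9-23 replicates 1 and 2, and their summed level was highest in insB:9-23 replicate 1, at 6.57 CPM against 5.12 in replicate 2. V segments are near-identical families whose reads the counting could split, so single segments were not compared.

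**Figure D2:**
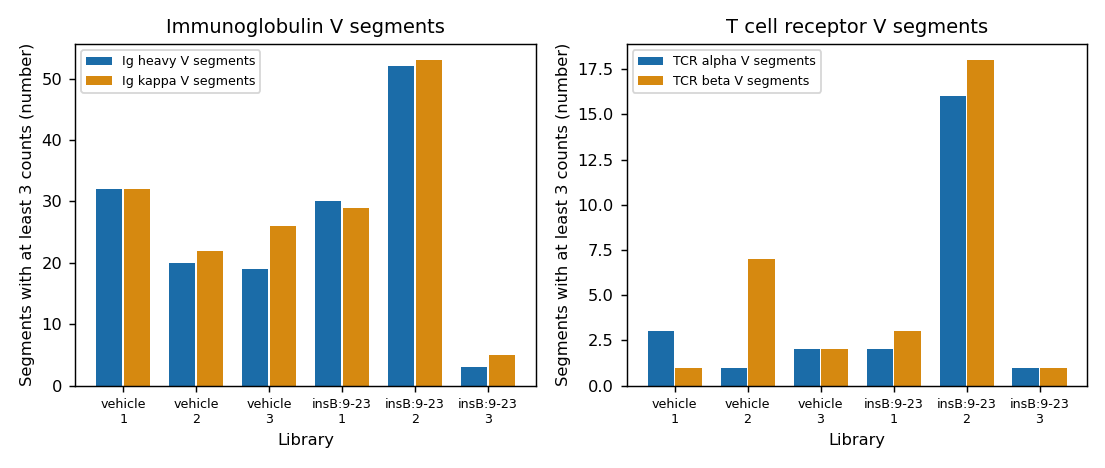
Number of immunoglobulin (left) and T cell receptor (right) V segments with at least 3 counts in each library, as bars from 0. These 4 families peak in insB:9-23 replicate 2, with 52 heavy, 53 kappa, 16 alpha and 18 beta segments.

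T cell genes were at their highest in the same library. Their summed level was 6.9, 8.32 and 6.86 CPM with vehicle, against 9, 37.4 and 5.4 CPM with the ligand. The ratio of group means was 2.35, and 0.978 without insB:9-23 replicate 2, which held 50.6% of the T cell CPM of all libraries. T cell receptor segments were also most numerous there. Alpha segments with at least 3 counts numbered 3, 1 and 2 with vehicle, against 2, 16 and 1 with the ligand, and beta segments 1, 7 and 2 against 3, 18 and 1.

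The CD3 chains, which assemble with the receptor, differed in their step between libraries. Cd3g, the gamma chain (chromosome 9, 44969572 to 44980431), was at 0.269, 0.224 and 0.337 CPM with vehicle, against 0.785, 3.95 and 0.437 CPM with the ligand, and its groups did not overlap. Its log2 fold was 2.63 ± 0.90 (SE; edgeR adjusted p = 0.88), and 1.14 without replicate 2. Cd3e, the epsilon chain (chromosome 9, 44998740 to 45009627), was at 0.332, 0.256 and 0.187 CPM with vehicle, against 0.205, 0.374 and 0.218 CPM with the ligand. Its highest value was 1.1-fold above the next library. Per exonic length Cd3g was 13.2 times Cd3e in insB:9-23 replicate 2, but elsewhere only 1.01 to 4.78 times it. Cd3d, the delta chain, had 9, 32 and 15 counts with vehicle, against 0, 72 and 12 with the ligand. Cd247, the zeta chain, was 1.4-fold above the next library, but 56.4% of its exonic bases lie opposite Pou2f1.

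Trac, the constant region of the alpha chain, was at 0.317, 0.577 and 0.487 CPM with vehicle, against 0.478, 2.56 and 0.0874 CPM with the ligand. Trbc2 and Trbc1, near-identical constant regions of the beta chain whose reads the counting could split, were 3.33-fold and 2.39-fold above the highest other library in insB:9-23 replicate 2. All 3 constant regions were thus at their highest in that library.

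**Figure D3:**
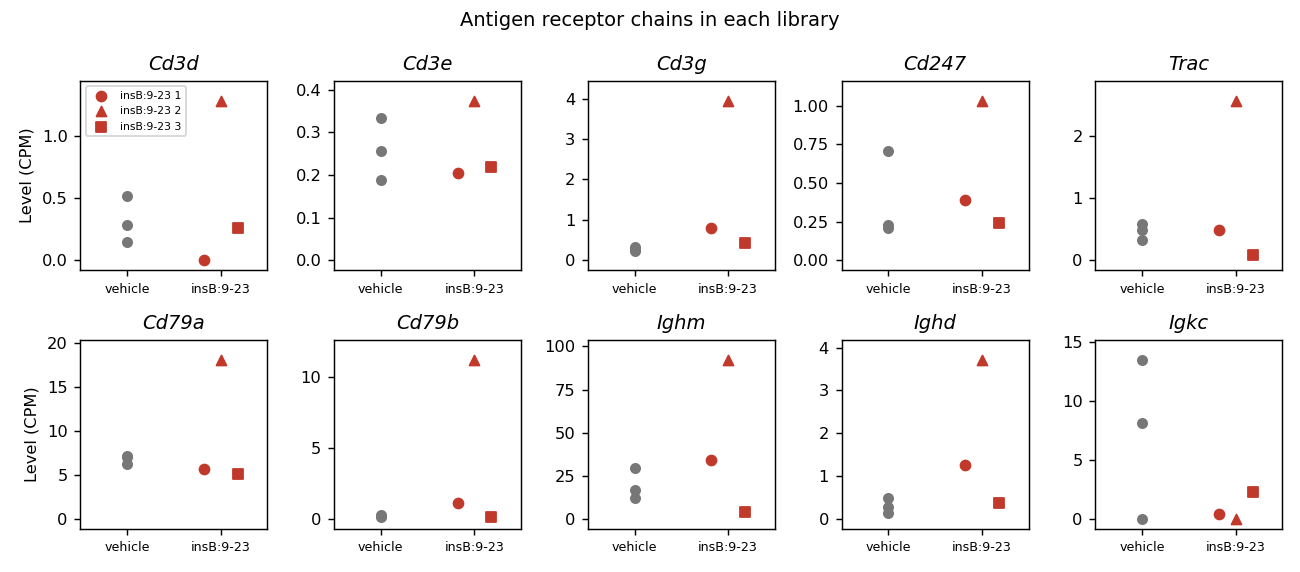
Level in CPM of 10 antigen receptor chains, 1 panel per gene with its own axis, grey points for the 3 vehicle libraries and red symbols for the 3 insB:9-23 libraries. Replicate 2 (triangle) lies above all other libraries for Cd3g at 3.95 CPM and Cd79b at 11.2 CPM, barely so for Cd3e at 0.374 CPM, and at 0 for Igkc.

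Among coreceptors, Cd4 was at 0.427, 0.256 and 0.412 CPM with vehicle, against 0.239, 3.01 and 0.0874 CPM with the ligand. Cd8b1, the beta chain of CD8, was at 0.158, 0.272 and 0.225 against 0.137, 1.74 and 0.0874 CPM. Cd8a, the alpha chain, was 1.36-fold above the next library and had 0 counts in insB:9-23 replicate 3. Per exonic length Cd4 was 2.5 times Cd8a in insB:9-23 replicate 2 and 0.301 to 2.21 times it in the 4 other libraries with Cd8a counts.

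Of the signalling kinases and the adaptor, Lck was at 1.22, 1.14 and 2.06 CPM with vehicle, against 1.72, 5.03 and 0.655 CPM with the ligand. Its log2 fold of 0.75 ± 0.74 (SE; edgeR adjusted p = 0.91) became -0.30 without replicate 2. Zap70 and Lat were 1.85-fold and 1.76-fold above the highest other library in that replicate, smaller steps than that of Lck at 2.38-fold.

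Adhesion and costimulatory receptors included the T cell member with the largest step, Cd2. Cd2, an adhesion receptor of T and NK cells, was at 0.554, 0.513 and 0.206 CPM with vehicle, against 0.512, 4.59 and 0.175 CPM with the ligand, which is 7.17-fold above the next library. Its log2 fold of 2.04 ± 1.22 (SE; edgeR adjusted p = 0.88) became -0.30 without replicate 2. Ctla4, an inhibitory receptor, was 5.13-fold, Icos, an inducible costimulator, 4.4-fold and Cd28, the main costimulator, 2.36-fold above the next library. Il7r, the interleukin 7 receptor, was at 0.507, 0.481 and 0.431 CPM with vehicle, against 0.649, 1.33 and 1.05 CPM with the ligand, with no overlap of the groups. Replicates 2 and 3 were both above 1 CPM, unlike most T cell members, and its log2 fold was 1.09 ± 0.38 (SE; edgeR adjusted p = 0.88), or 0.84 without replicate 2. Foxp3, the regulatory T cell factor, was at 0.301, 0.128 and 0.0937 CPM with vehicle, against 0.324, 0.409 and 0.415 CPM with the ligand. These are 5 to 23 counts per library, and exons of 4 other genes overlap its own, with up to 18.6% of its exonic bases shared.

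The NK and cytotoxic genes had a smaller median step, 1.54-fold over the next library, than the B cell genes at 2.62-fold or the T cell genes at 2.38-fold. Their sum was 4.45, 3.56 and 3.28 CPM with vehicle, against 3.11, 8.43 and 2.56 CPM with the ligand. The ratio of group means was 1.25, and 0.753 without insB:9-23 replicate 2, and that library held 33.2% of the total. Nkg7, a granule membrane protein of cytotoxic cells, was at 0.38, 0.337 and 0.3 CPM with vehicle, against 0.205, 1.39 and 0.175 CPM with the ligand. Il2rb, the interleukin 2 receptor beta chain, was 2.09-fold above the next library. The effector genes stepped less: Prf1, perforin, was 1.9-fold, Gzma 1.29-fold and Gzmb 1.1-fold above the next library. Ccl5, a chemokine of T and NK cells and the most abundant gene of this subset per exonic length, was at 2.14, 1.27 and 0.806 CPM with vehicle, against 1.28, 2.61 and 0.896 CPM with the ligand. Its log2 fold was 0.19 ± 0.54 (SE; edgeR adjusted p = 0.97), and -0.37 without replicate 2. Klrb1c, the NK1.1 antigen, had 0 to 16 counts in 5 libraries and 32 in insB:9-23 replicate 2. Ncr1, the NK receptor NKp46, had 12, 0 and 4 counts with vehicle, against 5, 0 and 0 with the ligand, so this defining NK receptor had no count in the library with the highest summed level.

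Ltb, lymphotoxin beta, was at 0.507, 0.128 and 0.375 CPM with vehicle, against 0.683, 3.06 and 0.109 CPM with the ligand. Its log2 fold was 1.93 ± 1.17 (SE; edgeR adjusted p = 0.88), and 0.24 without replicate 2. It too had its highest and its lowest library within the insB:9-23 group.

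Between the groups, 38 of the 41 members passed the filter on low counts, and Blk, Klrb1c and Ncr1 did not. In the edgeR quasi-likelihood test, 0 of the 38 passed at an adjusted p below 0.05, against 0.0823% of all 17016 genes tested, and DESeq2 called 0 as well, against 0.685%. At an unadjusted p below 0.05, 6 members were higher (Cd79b, Ms4a1, Cd22, Ighd, Cd3g and Il7r) and 0 lower, against 2.74% of all genes higher and 2.81% lower. Without insB:9-23 replicate 2 the edgeR test again called 0 members, against 0.0957% of all genes. Groups did not overlap for 4 members (Cd22, Cd3g, Il7r and Foxp3), all higher, against 6.4% of all genes, and 0 members did so in the lower direction, against 7.12%. The median log2 fold of the 38 was 1.10, and -0.22 without insB:9-23 replicate 2, against 0.01 and 0.00 over all genes tested. Folds were above 0 for 35 of 38 members, against 51.5% of all genes, and for 16 of 38 without that library, against 50.7%.

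The signal was strongest in 1 library but not confined to it. Over all 41 members, insB:9-23 replicate 2 was the highest of the 6 libraries for 38, and the exceptions were Igkc, Foxp3 and Ncr1. Among the 38 members tested it was highest for 36, and over all genes tested for 19.2%. It lay at least 2-fold above each other library for 23 of 41 members. Among the 38 tested this held for 22, against 1.23% of all genes tested. By subset the 2-fold step was met by 7 of 10 B cell, 12 of 19 T cell, 1 of 3 plasma and light chain and 2 of 8 NK and cytotoxic genes, and by Ltb. Counts were present in all 6 libraries for 36 of the 41 members, or 87.8%, and for 94.1% of all genes tested, and no member was at 0 in all 5 of the others. Presence alone is weak evidence of signal, because some members had few counts in those 5, as Blk with 5 to 9 and Trbc1 with 4 to 14. Among those 5, insB:9-23 replicate 1 was highest for 7 of 10 B cell genes and 4 of 19 T cell genes, against 18.8% of all genes. The library insB:9-23 replicate 3 was the lowest of all 6 for 17 of 41 members, against 18.7%.

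**Figure D4:**
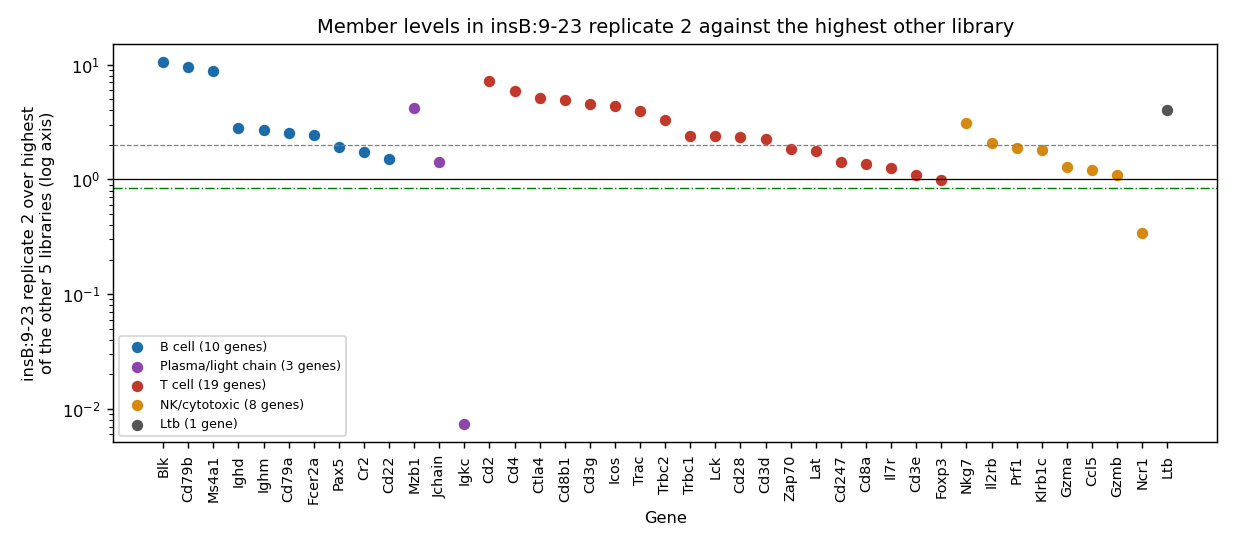
Level of each of the 41 members in insB:9-23 replicate 2 divided by the highest of the other 5 libraries (CPM with 0.1 added, log axis), coloured by subset. The solid line is at 1, the dashed line at 2 and the dash-dot line at 0.848, the median of all genes tested. Blk at 10.5 is highest and Igkc lies far below 1.

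The balance of B to T cell RNA depended on the genes compared. The summed B cell CPM was 5.91, 2.46 and 3.97 times the summed T cell CPM in the vehicle libraries and 5.5, 4.21 and 2.28 times in the ligand libraries. By these sums insB:9-23 replicate 2 lay within the vehicle range. In every library Ighm and Cd79a held most of the B cell sum, at 29.8 and 7.04 of 40.8 CPM in vehicle replicate 1. The ratios of sums therefore mainly describe these genes. For 1 pair of receptor chains it did not. Per exonic length Cd79b was 6.47 times Cd3g in insB:9-23 replicate 2, 3.18 times it in replicate 1 and 0.571 times it in replicate 3, against 1.3 to 2.15 times in the vehicle libraries. The ratios of this pair rest on 5 to 64 Cd79b counts outside insB:9-23 replicate 2.

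Of 19 other genes of the B cell lineage and receptor pathway tested, 0 passed the edgeR test, against 0.0823% of all genes tested. At an unadjusted p below 0.05, 1 was higher, against 2.74% of all genes. The median log2 fold of the 19 was 1.01, or 0.27 without insB:9-23 replicate 2. Of the 19, 11 were highest in that library, against 19.2% of all genes tested, and 8 were not, among them 3 of the 4 most abundant. Cd74, the invariant chain, was at 197 CPM in that library against 86.6 to 205 elsewhere, and Plcg2, phospholipase C gamma 2, at 7.65 against 7.1 to 9.92. Cd72, an inhibitory B cell receptor, was at 6.15 CPM there and 4.42 to 7.39 elsewhere, but 41.6% of its exonic bases lie opposite Tesk1. Pou2af1, a more B cell restricted coactivator, stood at 6.81 CPM there against at most 1.28 elsewhere, and was picked with its values in view. Of 20 other T cell receptor signalling genes tested, 0 passed and 1 was higher at an unadjusted p below 0.05, against 2.74% of all genes. In lists this short, 1 gene cannot be told apart from that share. The median log2 fold of the 20 was 0.59, or -0.11 without insB:9-23 replicate 2. Plcg1, phospholipase C gamma 1, was at 55 CPM in that library and 49.8 to 62.9 elsewhere. Of the 10 other plasma cell and antibody genes tested, 0 passed the edgeR test. At an unadjusted p below 0.05, 2 were lower, against 2.81% of all genes. One was Prdm1, the plasma cell factor Blimp-1, at 5.52, 6.33 and 4.68 CPM with vehicle, against 3.24, 3.75 and 3.69 CPM with the ligand (edgeR adjusted p = 0.88). The other was Igha, the constant region of IgA, chosen after its values were seen, at 5.46, 3.78 and 2.49 CPM with vehicle, against 0.717, 0.534 and 0.0437 CPM with the ligand. The groups did not overlap for either gene, against 7.12% of all genes in the same direction. The log2 fold of Igha was -3.16 ± 0.88 (SE; edgeR adjusted p = 0.88, DESeq2 adjusted p = 0.016). Others of this list went the other way. Of 14 listed, 5 were highest in insB:9-23 replicate 2, against 19.2% of all genes tested. At least 2-fold above each other library were 4, against 1.23%. Among these, picked with their values in view, Irf4, a transcription factor of activated B and plasma cells, was at 4.75 CPM there and at most 0.615 elsewhere, and Iglc2, a lambda light chain constant region, at 8.2 CPM against at most 2.44. Xbp1, the most abundant of the 14, was at 176.5 CPM there and 189.7 to 230.5 CPM elsewhere.

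Some markers of other cells moved with the lymphocyte genes in insB:9-23 replicate 2. Of 11 listed genes of lymph node stroma, follicular dendritic cells and high endothelial venules, 8 were highest there and 5 lay at least 2-fold above each other library. Over all genes tested these shares were 19.2% and 1.23%. The 11 genes summed to 45.4 CPM there and 18 to 26 CPM elsewhere. Cxcl13, the chemokine that draws B cells into follicles, was at 0.253, 0.16 and 0.15 CPM with vehicle, against 0.137, 11.9 and 0.437 CPM with the ligand. Ccl19, a T zone chemokine, was at 3.25 CPM in that library and at most 0.143 CPM elsewhere. Ccl21a, another T zone chemokine, and Glycam1, a mucin-like ligand of high endothelial venules, both chosen after their values were seen, were at 3.29 and 3.22 CPM there, with 13 or fewer and 6 or fewer counts in each other library. Other genes of this list did not step up in this way. Ltbr, the most abundant of the 11, was at 20 CPM there and 16.5 to 24.4 CPM elsewhere. Coch was at 0.0889 CPM there and 0.0854 to 0.385 CPM elsewhere, and Madcam1 at 0.32 CPM there against at most 0.253 elsewhere. Of 7 listed germinal centre and cycling genes 3 were highest there, against 19.2% of all genes tested. Of 11 listed lymphocyte homing and chemokine genes 10 were. One of these 11 was called by DESeq2, against 0.685% of all genes, but not by edgeR. It was Ccr7, the lymph node homing receptor, at 0.317, 0.0641 and 0.3 CPM with vehicle, against 0.546, 6.08 and 2.16 CPM with the ligand. Its groups did not overlap, and its log2 fold was 3.68 ± 1.06 (SE; edgeR adjusted p = 0.88, DESeq2 adjusted p = 0.019), or 2.57 without replicate 2. The part of lymphoid tissue RNA in the result was not tested.

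Genes shared by all leukocytes were high in the same library, where 8 of 9 listed were highest and 6 lay at least 2-fold above each other library. Over all genes tested these shares were 19.2% and 1.23%. The 9 genes summed to 132 CPM there and 29.5 to 46.9 CPM elsewhere. Ptprc, which encodes the pan-leukocyte phosphatase CD45, was at 33.8 CPM there and 5 to 11 CPM elsewhere. Of 12 other NK and cytotoxic genes listed, 6 were highest in that library and 1 lay at least 2-fold above each other library. Of 6 listed gamma-delta T and innate lymphoid genes, 4 were highest there.

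Myeloid genes had smaller steps, apart from 1 gene. Of 12 listed, 6 were highest in insB:9-23 replicate 2, against 19.2% of all genes tested. At least 2-fold above each other library lay 1, against 1.23%. That gene was Lyz2, lysozyme, at 61.8 CPM against 6.29 to 13.1 elsewhere. Csf1r, the macrophage growth factor receptor, was at 20.1 CPM in that library and 13.3 to 17.6 elsewhere, and C1qa, a complement gene of tissue macrophages, at 53.6 against 17.3 to 48.2. The summed level of the myeloid list was 216 CPM there and 109 to 146 CPM elsewhere. Haemoglobin and other red cell genes summed to 21.3 CPM there, within the 10.6 to 33.7 CPM of the other libraries.

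**Figure D5:**
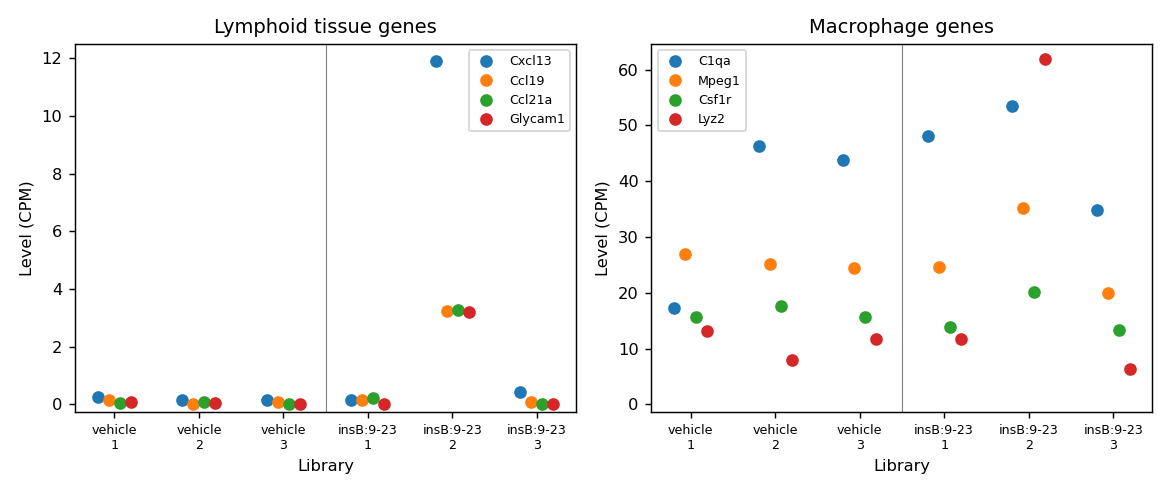
Level in CPM of 4 lymphoid tissue genes (left) and 4 macrophage genes (right) in each library, points of 1 library set side by side. The genes on the left were picked among those high in insB:9-23 replicate 2. Cxcl13 reaches 11.9 CPM in insB:9-23 replicate 2 and at most 0.437 CPM elsewhere, while Csf1r lies between 13.3 and 20.1 CPM in all 6 libraries.

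Islet hormone and acinar RNA were both abundant in every library. Total counts lay between 52052808 and 58880189, and 3 counts correspond to 0.0475 to 0.0655 CPM. The 7 listed islet hormone and granule genes summed to 143400 to 161400 CPM. The 11 listed acinar genes summed to 132800 to 176700 CPM in 5 libraries and 296700 CPM in insB:9-23 replicate 3, the library lowest in lymphocyte sums. The part of that acinar RNA in the low sums was not tested. Low counts were not spread evenly over whole numbers: 4 was held by 5224 pairs of gene and library against 2394 at 3 and 3401 at 5, and 8 by 2616 against 1156 at 7 and 1702 at 9. A single count was therefore not read as 1 molecule, and counting intervals are not given for members with few counts. The labels name no animal per library, so the spread behind each p-value is between libraries and may be technical only.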

How the data were processed

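Islet RNA (TRIzol) went into stranded KAPA libraries, per the labels' protocols. The deposited tables, 1 for each library, hold unnormalized counts by Ensembl ID. Build GRCm38 and the tools HISAT, DESeq 1.8.3 and featureCounts 1.5.0-p3 appear, with no role, in the submitters' processing notes. Strand setting and annotation release were not given in the sources used here. Symbols, exons and overlaps came from GENCODE M21 (same build).

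The test across all genes was that of edgeR 4.0.16, run under R 4.3.3 (filterByExpr, TMM, robust quasi-likelihood F test, Benjamini-Hochberg adjustment over 17016 genes, threshold 0.05). SE is the fold divided by the root of F. The exonic length is the union of exons. Libraries' excess was read as CPM + 0.1 over the highest of the other 5. The test was first tried on simulated data, with differences planted only in genes with a mean above 1 CPM. It missed most that were 2-fold, finding 17 in 100. Where the planted difference was 4-fold, it found 71 in 100. Its 97 calls over the whole simulation included 9 false ones. Most members lay below that level, and only 7 passed the filter of at least 1 CPM in 3 libraries. The rates of finding planted differences therefore do not cover most members. A member that did not pass may thus still differ between the groups.

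Alternatives were RLE scaling, library totals alone, DESeq2 1.42.0, 2 other filters, each library left out in turn, and a block for replicate number. The text names all members, some of the 4 most abundant genes of the context lists (and any that pass the test), and other listed genes picked with their values in view. It also names some of the 15 genes outside the lists with the largest excess in 1 library. The members and lists were chosen with earlier results of these data known. No test was made of a sum over members.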

Additional observations from a re-analysis of the deposited data

How the results depend on the processing

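No member passed the edgeR test with RLE scaling, library totals alone, another filter, the replicate block or any library left out, nor DESeq2. Over all genes the count of 14 became 116 with DESeq2, 0 with the replicate block and 16 to 26 with 1 library left out. The correlation of same-numbered deviations from the group means was -0.0349, -0.0637 and -0.0249, and that of other pairs lay between -0.0311 and 0.0655. These gave no sign that replicate numbers pair the samples, but values this small cannot settle it. With each library left out, log2 folds ranged from -0.33 to 0.81 for Cd79a, -0.04 to 1.69 for Ighm, -1.14 to 0.29 for Jchain, -0.30 to 2.58 for Cd2, -0.30 to 1.20 for Lck and -0.37 to 0.62 for Ccl5, each changing sign. The cause was not tested. Folds stayed above 0 for Cd79b (1.57 to 4.91), Ms4a1 (1.55 to 4.72), Cd3g (1.14 to 3.09) and Ltb (0.24 to 2.47). Each of these was lowest without insB:9-23 replicate 2. Ratios of summed CPM ranged from 0.864 to 2.71 for all members, 0.978 to 3.15 for T cell and 0.753 to 1.53 for NK and cytotoxic genes, below 1 only without insB:9-23 replicate 2. For B cell genes the ratio stayed above 1, at 1.05 to 3.51. The plasma and light chain ratio of 0.45 was 1.13 without Igkc. The share held by the highest library, 46.8% for all members, was 45.8% from raw counts and 49.4% without constant region genes. For B cell genes it was 50.2% and 54.7%, and from raw counts 37.8% for plasma and light chain genes. Library totals alone moved the median log2 fold of all genes to -0.145. Most members had fewer than 100 counts in a library, which limits their precision.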

Other observations

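Outside all lists, the 15 genes with the largest excess in insB:9-23 replicate 2 were mostly not lymphocyte genes. Of these, 12 had 0 counts in all 5 other libraries and 8 of the 12 have a single exon. Ier2, an immediate-early gene with 1 exon, had 4786 counts there and 0 in each other library. P2ry10, a lymphocyte lipid receptor gene with 4 exons, had 336 counts there and at most 29 elsewhere.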
